A study of Mus musculus with 15 samples.

Results

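Metalloproteases are zinc-dependent enzymes that cut proteins outside the cell or at its surface, and the genes described here are the 4 families MMP, ADAM, ADAMTS and TIMP. Members were taken by gene symbol from the platform annotation, without regard to their signals. The 65 members were 18 MMP, 28 ADAM, 15 ADAMTS and 4 TIMP genes, out of 18193 genes measured. The arrays held 3 groups of mouse lung cells, all cut from frozen sections of K-RasG12V knock-in mice by laser capture microdissection, 3 months after an adenovirus had delivered Cre recombinase. H1 (3 arrays) and H2 (4 arrays) are subtypes of early hyperplastic lesions of about 500 cells, found through a color marker that the oncogenic allele also expresses. Normal lung cells (8 arrays) came from the same sections, so all 3 groups share the knock-in mouse and the exposure to virus. The labels do not give the strain, age or number of the mice, which regions came from the same mouse, or on what basis lesions were divided into H1 and H2. Captured regions of a mouse are not independent, so p-values over arrays measure the spread between these regions and may be too small or too large.

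MMPs (matrix metalloproteinases) degrade collagens, elastin and other matrix proteins. ADAMs are mostly membrane proteins, some of which release growth factors and adhesion molecules from the cell surface. ADAMTS enzymes are secreted and bind the matrix, where several cut the proteoglycans versican and aggrecan, and TIMPs (tissue inhibitors of metalloproteinases) block the active site of these enzymes. In the lung, these enzymes are known for matrix turnover in alveolar growth, emphysema and tumour invasion.

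Levels are log2 signals of the probe set that stands for a gene, and a difference of 1 is a change of signal by a factor of 2. Signals of different genes are not comparable in level, because probes differ in affinity. The array values, amplified from little RNA, differed in spread: the standard deviation (SD) over genes was 1.42 ± 0.10 in H1, 1.64 ± 0.12 in H2 and 1.38 ± 0.18 in normal arrays (SD over arrays, n = 3, 4 and 8). The signal of the 3′ minus that of the 5′ control probe set of Actb, a measure of RNA and amplification quality, was -0.70 ± 0.60 in H1, -0.0028 ± 0.23 in H2 and -0.63 ± 0.62 in normal arrays. Markers of alveolar type 2 cells, the surfactant-making cells of the alveolus, had a mean log2 signal of 7.23 to 8.64 in H1, 7.85 to 9.24 in H2 and 4.69 to 9.03 in normal arrays. All 10 of these markers had a higher mean in H2 than in normal arrays, and 1 of them passed the test. Of 11 endothelial markers, 11 had a lower mean in H1 and 9 in H2 than in normal arrays, with median differences of -0.63 and -0.73. Their mean signal was 4.49 to 4.99 in H1, 4.43 to 4.81 in H2 and 4.42 to 6.47 in normal arrays. Of 12 fibroblast markers, 5 were higher and 7 lower in H2, and 1 rose and 1 fell (mean signal 5.48 to 5.50 in H1, 5.39 to 5.80 in H2 and 4.90 to 6.83 in normal arrays). The part of these cell types in the members' differences was not tested. In such bulk samples, fewer cells of a type and less RNA per cell cannot be told apart.

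Across the families, most metalloproteases did not pass the test, and Adamts1 and Adam19 did. Genes whose limma adjusted p lay under 0.05 (Benjamini-Hochberg over all 18193 genes) are termed called. In H2 against normal, 2 of 65 members rose and 0 fell (3.08%), beside 3.38% of all genes (2.89% rose and 0.495% fell). With all 7 lesions set against normal, 1 of 65 rose and 0 fell (1.54%), beside 0.291% of all genes (0.28% rose and 0.011% fell). None of the 65 was called by limma in H1 against normal, where 0.011% of all genes were, or in H1 against H2, where 0.0055% were. At an unadjusted p under 0.05, H1 against normal gave 1 member higher and 0 lower, beside 4.23% of all genes (1.85% higher and 2.39% lower). In H2 against normal it gave 7 members higher and 8 lower, 23.1% of members, beside 21.4% of all genes (12.7% higher and 8.7% lower). The same threshold gave 2 higher and 2 lower in H1 against H2, beside 12.3% of all genes (4.9% higher and 7.41% lower). All lesions together gave 4 higher and 3 lower, beside 12.8% of all genes (8.1% higher and 4.66% lower). The shares of members were near these backgrounds or below them, apart from the single call in all lesions. Lesion and normal values overlapped for each of the 65 members when H1 and H2 were joined, where 0.225% of all genes did not overlap (0.187% higher and 0.0385% lower in lesions). In H1 alone they overlapped for each member as well, beside 1.4% of all genes without overlap (0.5% higher and 0.896% lower).

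The median difference over the 65 members was -0.10 in H1 and -0.14 in H2 against normal, beside -0.05 and -0.04 over all genes. In H2, 15 of 18 MMP genes had a lower mean than in normal cells, with a median difference of -0.21, and 3 had a higher one. Over all 18193 genes, 9769 were lower and 8424 higher. Among the ADAM genes 11 were higher and 17 lower, among the ADAMTS genes 7 were higher and 8 lower, and of the TIMP genes 1 was higher and 3 were lower. Of the 65 members, 32 had a mean signal above 3.99, the median over all probe sets, which is 49.2% of members beside 63.6% of all genes. Only 7 of the 18 MMP genes lay above that level. The 33 dimmer members contributed 7 of the 22 higher and 26 of the 43 lower differences in H2, and signals near background say little about low transcripts.

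**Figure D1:**
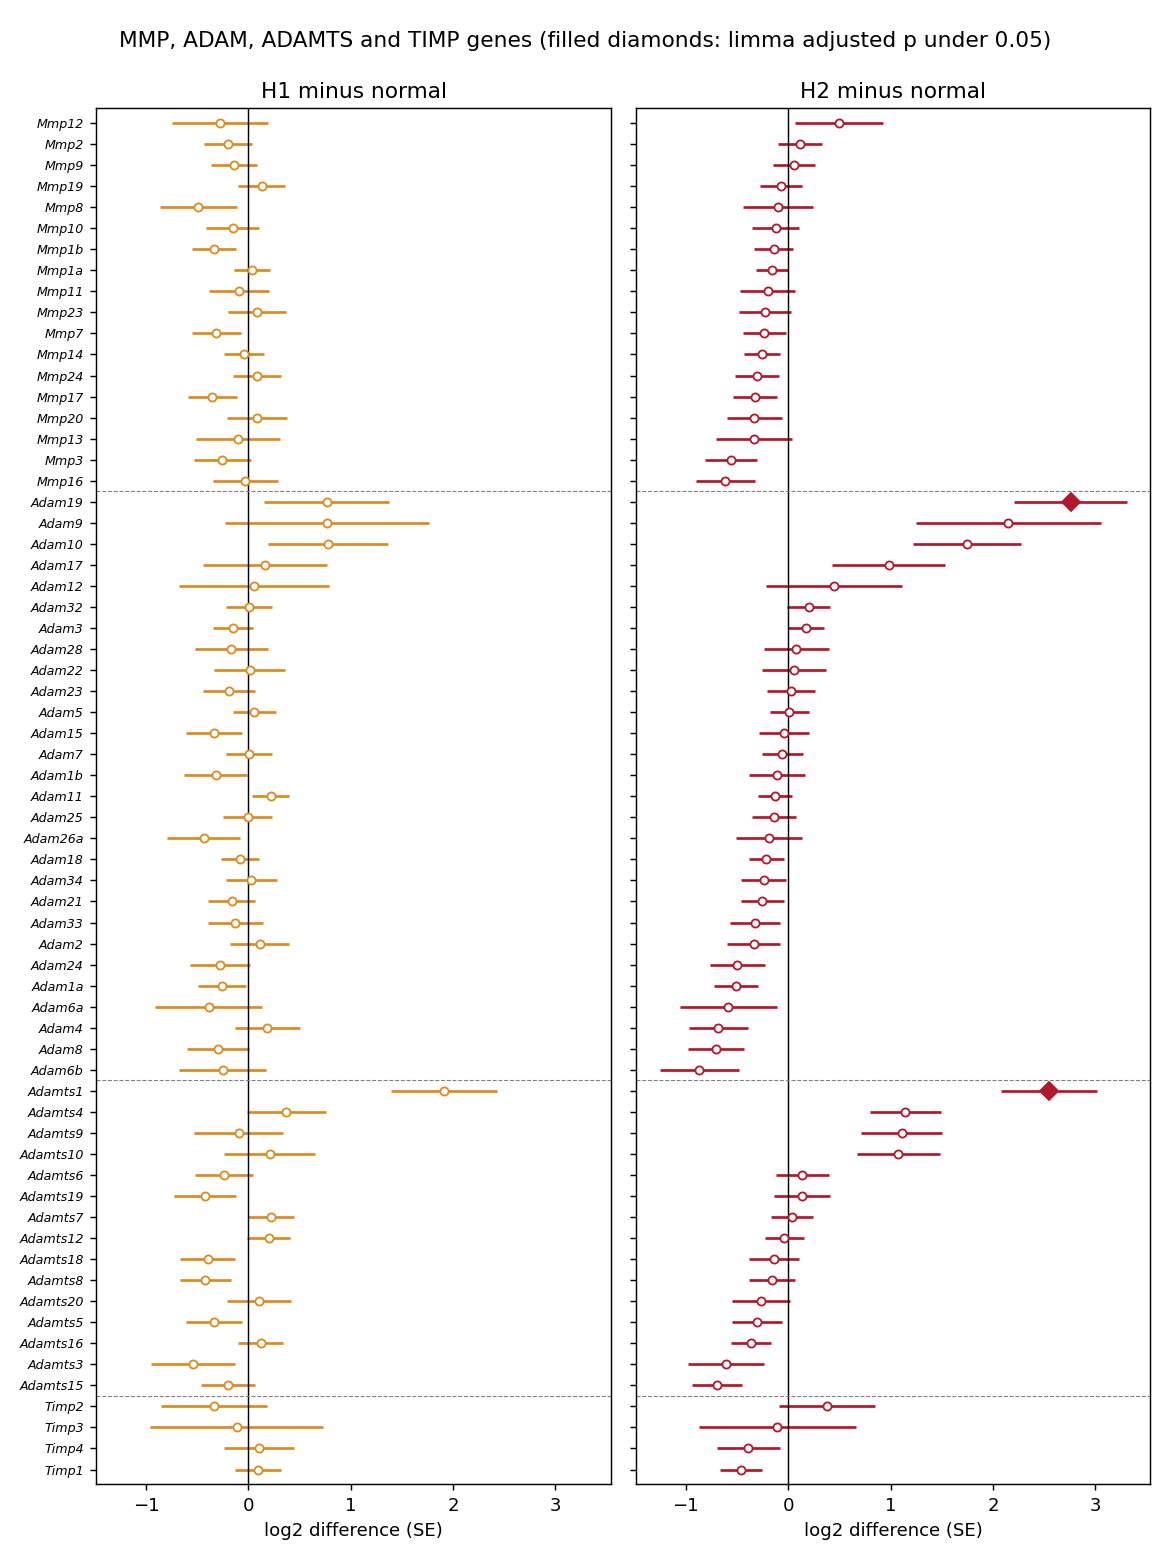
Difference in log2 signal from normal cells for each of the 65 members, in H1 and in H2, with the standard error of the limma fit as lines either side of each point and filled diamonds for adjusted p under 0.05. In H2, Adamts1 (2.54) and Adam19 (2.76) lie farthest to the right and carry the only filled diamonds.

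Adamts1, a secreted protease that cuts versican and aggrecan and also binds VEGF, was the member called in all lesions together and in H2. It was read by 1 probe set. Its log2 signal was 6.66, 7.86 and 7.58 in the H1 arrays and 8.14, 7.41, 8.12 and 8.33 in the H2 arrays, against 4.11 (lowest), 5.44 (median) and 6.94 (highest) in the 8 normal arrays. All 4 H2 lesions lay above every normal array, and 1 H1 lesion lay below the highest normal array. Group means were 7.37 ± 0.63 in H1, 8.00 ± 0.40 in H2 and 5.46 ± 1.02 in normal arrays (SD). The rise over normal was 2.27 ± 0.40 (SE) in all lesions, 4.83-fold, with a limma adjusted p of 0.0284. In H2 alone it was 2.54 ± 0.47, 5.83-fold, with a limma adjusted p of 0.0114. The H1 difference of 1.91 ± 0.52 was not called (limma adjusted p = 0.997), in a comparison where 2 of 18193 genes were. Its 95% interval was 0.81 to 3.01, with an unadjusted limma p of 0.0020. H1 minus H2 was -0.63, with a 95% interval of -1.87 to 0.61, so the subtypes were not shown to differ in Adamts1.

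Among the normal arrays, Adamts1 was lowest where the spread was narrowest. The 2 normal arrays with the narrowest spread (1.14 and 1.20) had the lowest Adamts1 signals of the group, 4.11 and 4.34. Without them, the rise was 1.86 in all lesions and 2.13 in H2, with limma adjusted p-values of 0.046 and 0.0188. At like spread, H1 replicate 2 (spread 1.31) had an Adamts1 signal of 6.66. Normal replicates 4, 5 and 7 (spread 1.33 to 1.34) had 4.80, 5.38 and 5.51. Likewise H2 replicate 1 (spread 1.52) had 8.14 and normal replicate 6 (spread 1.51) had 6.58. H2 replicate 6 (spread 1.70) had 8.12 and normal replicate 3 (spread 1.67) had 6.94. H2 replicate 7 (spread 1.78) had 8.33 and no normal array of like spread. H1 replicates 3 and 4 and H2 replicate 5 were not set beside a normal array. The part of spread in the rise was not tested. With spread as a covariate, Adamts1 stayed called in all lesions (1.54, limma adjusted p = 0.00491) and became called in H1 (1.73, limma adjusted p = 0.00983). In H2 the same fit gave 1.25, with a limma adjusted p of 0.0602, and the Actb difference as a covariate gave 1.96, with 0.0697. Adamts1 was not called in H2 in either of these fits. In all lesions together, 6 of the 15 fits that leave out 1 array kept the call, with differences of 2.08 to 2.48. The call was lost without normal replicate 4, 5, 7 or 8, H1 replicate 3, or H2 replicate 1, 5, 6 or 7, with limma adjusted p-values of 0.0563 to 0.0801. In H2 it was lost without H2 replicate 7 (2.43, limma adjusted p = 0.0528).

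**Figure D2:**
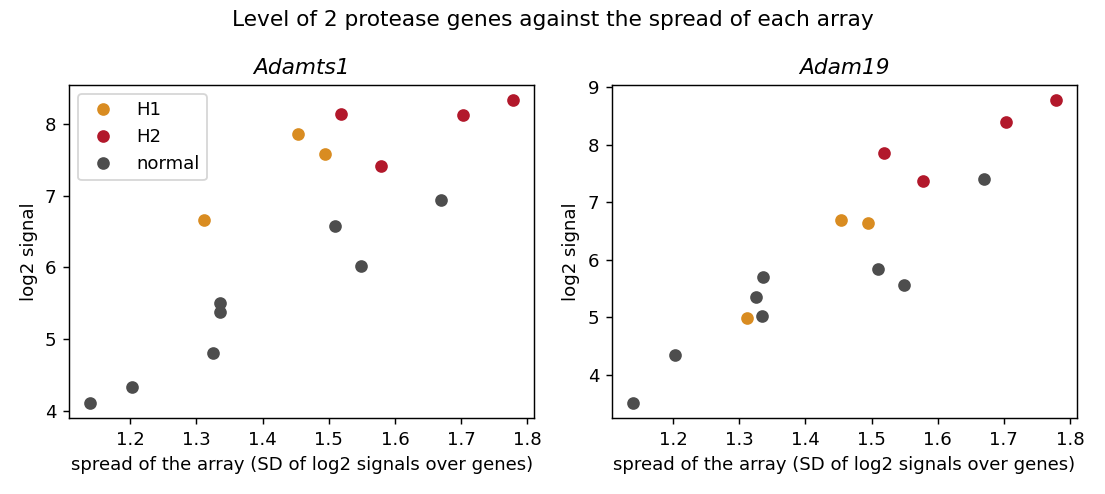
Log2 signal of Adamts1 and of Adam19 against the spread of each array (SD of log2 signals over genes), 1 point per array, by group. Among the normal arrays those of narrowest spread have the lowest signals of both genes. At like spread, Adamts1 was 6.66 on H1 replicate 2 and 4.80 to 5.51 on normal replicates 4, 5 and 7. H2 replicate 7, of the widest spread (1.78), has no normal array of like spread.

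The promoter of Adamts1 is shown because this gene carries the main difference. The 250 bases before its start, from RefSeq (GRCm38.p6, minus strand of chr16:85803114-85803363), hold TATAAA, the core of a TATA box, 32 bases before the start, in capitals. TATAAA, searched on both strands, was in 12.4% of the 32841 mouse promoter windows of this length and in 23.8% of the 42 windows of the 37 members that had one.
Adamts1: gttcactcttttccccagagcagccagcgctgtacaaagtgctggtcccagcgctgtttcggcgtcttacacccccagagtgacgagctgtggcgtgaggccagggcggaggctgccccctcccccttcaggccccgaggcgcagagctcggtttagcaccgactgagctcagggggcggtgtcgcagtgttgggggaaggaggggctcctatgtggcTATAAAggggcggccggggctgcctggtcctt

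Other ADAMTS genes differed by less and were not called. Adamts4, an aggrecan-cutting enzyme (aggrecanase), had signals of 4.10, 5.13 and 3.91 in H1 and 5.25, 5.92, 4.83 and 4.59 in H2, against 3.09 (lowest), 3.85 (median) and 4.79 (highest) in normal arrays. Of the H2 lesions, 3 lay above every normal array and 1 lay within their range. H2 minus normal was 1.14 ± 0.35 (limma adjusted p = 0.08), and its other probe set differed by 1.08. In H1 the difference was 0.37, and 1.36 by the other probe set. The mean of both probe sets was called in H2 (1.11, limma adjusted p = 0.0188) and in all lesions (1.00, limma adjusted p = 0.027).

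Adamts9, which also cuts versican and aggrecan, had signals of 5.46, 4.69 and 4.43 in H1 and 5.50, 5.66, 5.75 and 7.33 in H2, against 3.82, 4.99 and 6.03 as the lowest, median and highest normal values. One H2 lesion stood high and the other 3 lay within the normal range. Its H2 difference was 1.11 ± 0.39 (limma adjusted p = 0.126), and 2 other probe sets differed by -0.03 and -0.19. Adamts10, which binds fibrillin microfibrils, differed by 1.08 in H2 (limma adjusted p = 0.146).

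Adamts15, a further versican-cutting enzyme, had signals of 4.35, 4.61 and 4.41 in H1 and 4.30, 4.00, 3.75 and 3.78 in H2, against 4.02, 4.58 and 5.42 as the lowest, median and highest normal values. Of the H2 lesions, 3 lay below every normal array, and the H1 values lay within the normal range. H2 lesions differed from normal by -0.70 ± 0.24, which was not called (limma adjusted p = 0.117).

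Adam19, a membrane ADAM that can release neuregulins, was the other member called in H2. Its signals were 4.99, 6.70 and 6.63 in H1 and 7.86, 7.37, 8.39 and 8.77 in H2, against 3.51, 5.46 and 7.41 as the lowest, median and highest normal values. The H2 lesions lay above 7 of the 8 normal arrays, and the lowest of them lay just under the highest normal array. The rise in H2 was 2.76 ± 0.55, 6.76-fold, with a limma adjusted p of 0.0169. H1 differed from normal by 0.76, and all lesions by 1.90 ± 0.56 (limma adjusted p = 0.169). H1 minus H2 was -1.99 ± 0.69, with no overlap between the subtypes, as for 18.2% of all genes, and it was not called (limma adjusted p = 0.329). The other Adam19 probe set differed by 0.37 in H2, and the mean of both gave 1.56, which was not called (limma adjusted p = 0.095). In H1 minus H2 that probe set gave 0.12 and the mean of both -0.93. The 2 normal arrays of narrowest spread had the lowest Adam19 signals, and with spread as a covariate the H2 difference was 1.22 (limma adjusted p = 0.106). With the Actb difference as a covariate it was 2.22 and not called (limma adjusted p = 0.119). Without H2 replicate 6 or H2 replicate 7 the H2 difference was 2.66 or 2.53, with limma adjusted p-values of 0.064 and 0.0743.

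**Figure D3:**
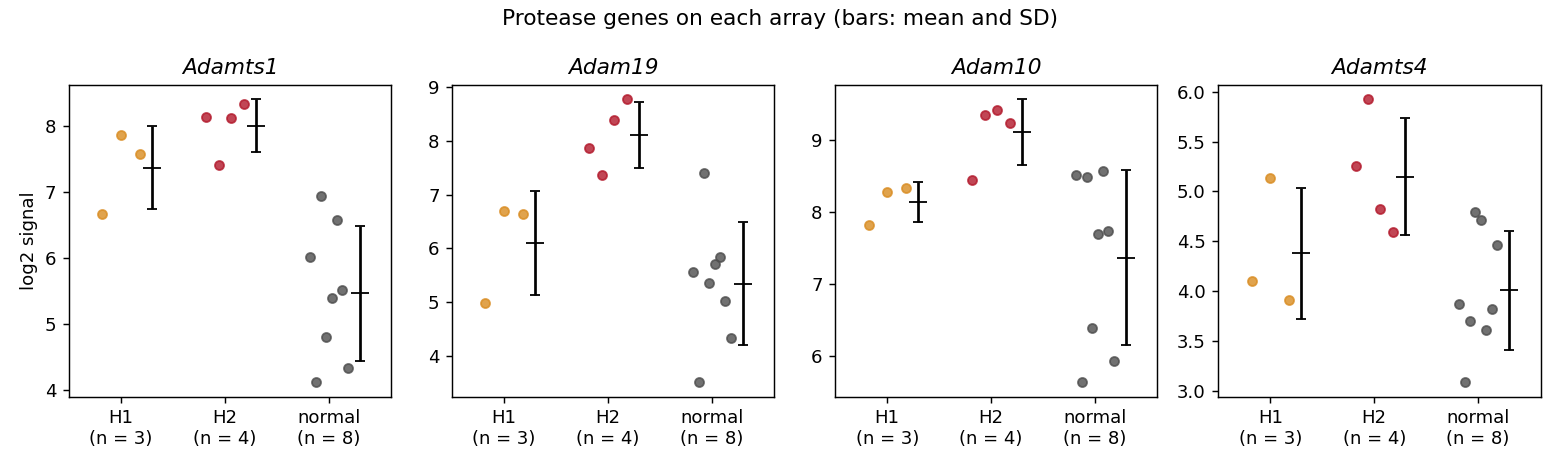
Log2 signal on every array for Adamts1, Adam19, Adam10 and Adamts4, by group from H1 through H2 to normal, with the mean and SD as lines. The H2 arrays of Adamts1 sit between 7.41 and 8.33, all above the highest normal array at 6.94.

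An Adam19 promoter is shown because this gene is the other one called. Of its 3 windows, 1 for each start, that on the plus strand of chr11:46055734-46055983 (RefSeq, GRCm38.p6) holds TGAGTCA 131 bases before the start, in capitals. TGAGTCA is a form of the AP-1 motif, TGANTCA, bound by Fos and Jun proteins. The motif, searched on both strands, was in 6.75% of the 32841 windows. The other Adam19 windows held no AP-1 match, and that share counts single windows, not genes with several.
Adam19: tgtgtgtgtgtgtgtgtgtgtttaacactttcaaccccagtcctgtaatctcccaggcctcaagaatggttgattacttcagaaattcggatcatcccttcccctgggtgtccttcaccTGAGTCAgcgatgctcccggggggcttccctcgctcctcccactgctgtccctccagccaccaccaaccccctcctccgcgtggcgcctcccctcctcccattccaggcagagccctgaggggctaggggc

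Adam10, the sheddase of Notch receptors and E-cadherin, had signals of 7.82, 8.28 and 8.33 in H1 and 8.44, 9.36, 9.43 and 9.25 in H2, against 5.63, 7.72 and 8.57 as the lowest, median and highest normal values. Of the H2 lesions, 3 lay above every normal array. H2 minus normal was 1.75 ± 0.53, which was not called (limma adjusted p = 0.0795). Without normal replicate 1 or normal replicate 3 it was called, at 1.91 (limma adjusted p = 0.0467 and 0.0394). Under the 11 other settings of the fit Adam10 in H2 was 0.10 to 1.83, and 1 setting called it. The limma adjusted p-values of these settings were 0.0168 to 0.859. Its 3 other probe sets differed by -0.33 to -0.57, the opposite direction. Adam17, the sheddase of TNF and TGF-alpha, averaged 5.92 ± 0.68 in H1, 6.74 ± 0.79 in H2 and 5.76 ± 1.15 in normal arrays. Its H2 difference was 0.98 ± 0.55 (limma adjusted p = 0.319).

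Adam9, a membrane protease of epithelial and other cells, varied widely, with 7.10 ± 1.30 in H1, 8.48 ± 0.52 in H2 and 6.33 ± 2.05 in normal arrays. Its H2 difference was 2.15 ± 0.90 (limma adjusted p = 0.184). Adam12, known for its induction in tumours and muscle, averaged 5.28 ± 0.85 in H1, 5.67 ± 0.91 in H2 and 5.23 ± 1.41 in normal arrays. Adam15, which can bind integrins, averaged 4.98 ± 0.17 in H1, 5.28 ± 0.14 in H2 and 5.32 ± 0.50 in normal arrays. The 95% intervals of the H2 difference reached from -0.97 to 1.86 for Adam12 and from -0.56 to 0.48 for Adam15.

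Adam8, a protease of myeloid cells, had signals of 3.50, 3.10 and 3.33 in H1 and 2.90, 2.77, 2.87 and 3.05 in H2, against 3.25, 3.30 and 4.87 as the lowest, median and highest normal values. The H2 values lay below every normal array, and the H1 values overlapped with them. Relative to normal, H2 differed by -0.71 ± 0.27, which was not called (limma adjusted p = 0.153). Under 10 other settings of the fit this difference was -0.71 to -0.24, with limma adjusted p-values of 0.0948 to 0.796. The mean signal of Adam8 over all arrays, 3.36, lay below 3.99, the median over all probe sets. Adamts1 and Adam8 were the 2 members whose H2 and normal values did not overlap, 3.08% of members beside 3.79% of all genes (2.7% higher and 1.08% lower). The mean of 9 neutrophil markers was 3.72 to 4.11 in H1, 3.64 to 3.98 in H2 and 3.79 to 4.16 in normal arrays. In H2, 3 of these were higher and 6 lower than in normal arrays (median difference -0.22). Of 9 alveolar macrophage markers, also myeloid, 7 were higher and 2 lower in H2 (median difference 0.74). The part of these cells in the Adam8 values was not tested.

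Adam4 and Adam1a belong to the ADAMs known from mouse testis. Adam4 had signals of 6.23, 6.35 and 5.94 in H1 and 4.84, 4.64, 6.31 and 5.42 in H2, against 5.39, 6.10 and 6.57 as the lowest, median and highest normal values. The H2 lesions split, with 2 below every normal array. H2 minus normal was -0.68 ± 0.29 and H1 minus H2 was 0.87 ± 0.36 (limma adjusted p = 0.186 and 0.361). Adam1a had signals of 3.84, 3.50 and 3.58 in H1 and 3.40, 3.58, 3.22 and 3.34 in H2, against 3.29, 3.87 and 4.45 as the lowest, median and highest normal values. The 3 groups overlapped, and the H2 difference was -0.51 ± 0.21 (limma adjusted p = 0.184). Under 10 other settings of the fit it was -0.54 to -0.09. The mean signal of Adam1a over all arrays, 3.71, lay below the median over all probe sets.

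Between H1 and H2, the values of 9 members did not overlap (13.8%), beside 18.2% of all genes (8.1% higher and 10.1% lower in H1). Adam11, Adam8, Adamts15, Timp1 and Timp4 were higher in H1 by the probe set that stands for the gene, and Adam10, Adam19, Adam9 and Adamts9 were higher in H2. None of the 9 was called by limma. The other probe set of Adam11 differed in the opposite direction, by -0.85 beside 0.34. So did probe sets of Adam10 (0.76 and 0.67 beside -0.97), Adam19 (0.12 beside -1.99) and Adamts9 (0.29 beside -1.20). A further probe set of Adam10 (-0.01), one of Adamts9 (-0.07) and the other of Timp4 (0.66 beside 0.50) kept the direction. Because the basis of the subtypes is not given, a difference between them may be part of how they were defined.

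**Figure D4:**
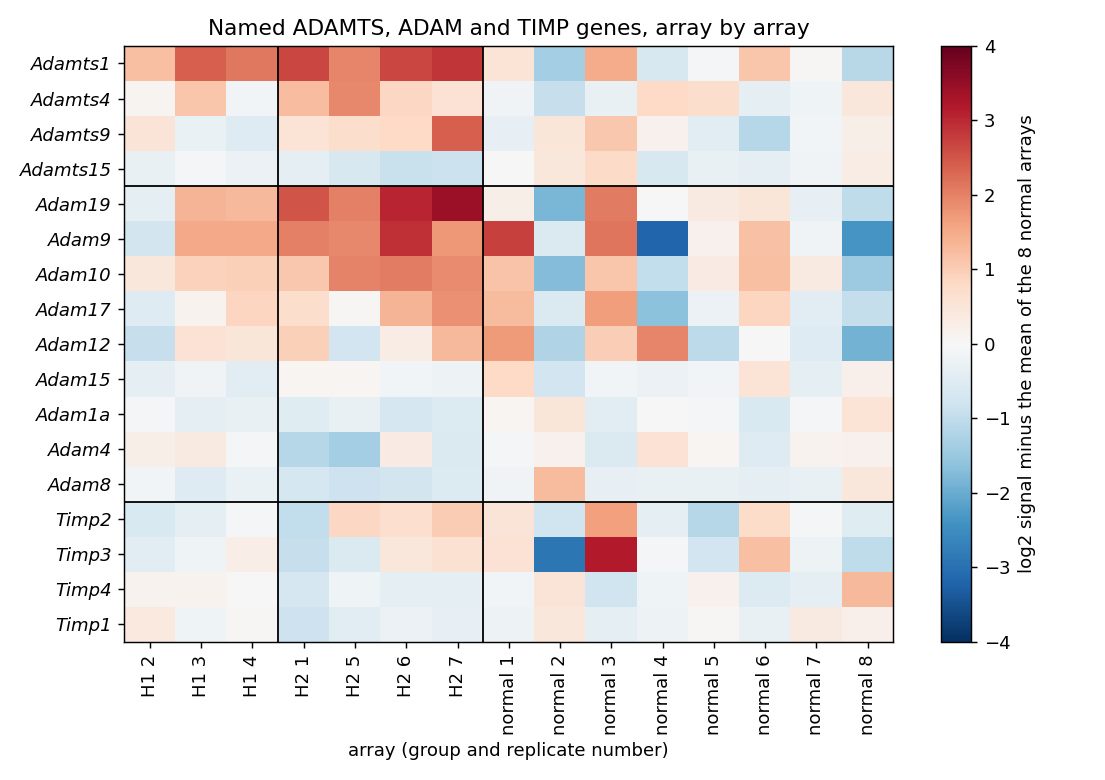
Log2 signal of each named member on every array, relative to the gene's mean over the normal arrays, with arrays in the order H1, H2, normal. Adamts1 is high on all H2 arrays (log2 signals of 7.41 to 8.33, normal mean 5.46). Adam19 is high on H2 and lower on H1 arrays (H1 log2 signals of 4.99 to 6.70, normal mean 5.34). The colours show these signals minus the normal mean.

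None of the 18 MMP genes was called in any comparison (limma), and at an unadjusted p under 0.05 2 of them were lower in H2 (11.1%), beside 8.7% of all genes lower and 21.4% in either direction. Those were Mmp16, a membrane-type MMP, at -0.61 ± 0.29, and Mmp3 (stromelysin-1) at -0.56 ± 0.25. Mmp2 and Mmp9, the gelatinases, differed in H2 by 0.12 ± 0.21 and 0.05 ± 0.21. Mmp14, the membrane enzyme that activates Mmp2, differed by -0.26 ± 0.18. Mmp12, the macrophage elastase, differed by 0.49 ± 0.43, with means of 3.47 ± 0.75 in H1, 4.24 ± 0.67 in H2 and 3.75 ± 0.80 in normal arrays. The mean of 9 alveolar macrophage markers was 5.14 to 5.97 in H1, 5.69 to 6.39 in H2 and 4.58 to 6.07 in normal arrays, with a median H2 difference of 0.74, and their part in the Mmp12 values was not tested. The 95% intervals of these MMP genes in H2 were -0.34 to 0.57 for Mmp2, -0.38 to 0.49 for Mmp9, -0.63 to 0.12 for Mmp14 and -0.41 to 1.40 for Mmp12.

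The MMP genes are shown by promoter because 8 of the 13 MMP members with a window shared the AP-1 motif TGANTCA while none of them was called. All 8 lie on chromosome 9, between bases 7272264 and 7692089. Their AP-1 match stood 35 to 95 bases before the start, and 7 of them also held TATAAA. AP-1 was in 10 of the 42 member windows (23.8%), and in 2 of 14 ADAM, 0 of 6 ADAMTS and 0 of 4 TIMP members with a window. TGACGTCA (CRE, the cyclic AMP response element) and ACCGGAAGT (ETS), also searched on both strands, were in 0 member windows, beside 1.55% and 0.804% of all windows. No matches of different motifs overlapped. The 8 genes include the collagenases Mmp1a and Mmp13, the stromelysins Mmp3 and Mmp10 and the elastase Mmp12. The others are Mmp1b, the matrilysin Mmp7 and Mmp20, which acts in tooth enamel. The last 100 bases before each start are given here (RefSeq, GRCm38.p6), with AP-1 and TATAAA matches in capitals.
Mmp10 (chr9:7502242-7502341, plus strand): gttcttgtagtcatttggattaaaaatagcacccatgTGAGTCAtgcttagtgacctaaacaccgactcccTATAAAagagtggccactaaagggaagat
Mmp12 (chr9:7347274-7347373, plus strand): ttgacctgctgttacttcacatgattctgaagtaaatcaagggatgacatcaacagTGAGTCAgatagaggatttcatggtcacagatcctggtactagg
Mmp13 (chr9:7272414-7272513, plus strand): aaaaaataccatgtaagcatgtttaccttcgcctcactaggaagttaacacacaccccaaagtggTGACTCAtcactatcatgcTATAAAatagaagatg
Mmp1a (chr9:7464041-7464140, plus strand): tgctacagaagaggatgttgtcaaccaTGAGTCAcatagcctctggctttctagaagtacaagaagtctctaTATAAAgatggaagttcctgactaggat
Mmp1b (chr9:7388027-7388126, minus strand): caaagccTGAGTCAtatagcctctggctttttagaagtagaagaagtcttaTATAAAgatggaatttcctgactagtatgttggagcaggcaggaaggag
Mmp20 (chr9:7628131-7628230, plus strand): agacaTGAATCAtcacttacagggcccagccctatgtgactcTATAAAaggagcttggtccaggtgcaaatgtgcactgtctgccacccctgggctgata
Mmp3 (chr9:7445722-7445821, plus strand): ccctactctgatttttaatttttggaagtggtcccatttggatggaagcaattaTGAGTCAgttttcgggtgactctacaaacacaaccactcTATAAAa
Mmp7 (chr9:7691990-7692089, plus strand): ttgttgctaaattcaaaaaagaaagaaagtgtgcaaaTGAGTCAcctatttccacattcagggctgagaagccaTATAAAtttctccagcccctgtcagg
Differences of these 8 genes from normal were -0.33 to 0.09 in H1 and -0.56 to 0.49 in H2. The lowest limma adjusted p among them in H2 was 0.216. Mean signals lay between 2.23 and 4.79 in H1, 2.04 and 4.37 in H2 and 2.20 and 4.70 in normal arrays. A motif match is a description of the sequence and not a bound site.

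The TIMP inhibitors were not called in any comparison by limma. Timp1, the secreted inhibitor of most MMPs, had signals of 3.95, 3.41 and 3.62 in H1 and 2.73, 3.11, 3.34 and 3.25 in H2, against 3.20, 3.50 and 4.02 as the lowest, median and highest normal values. Of the H2 lesions, 2 lay below every normal array and all 4 below every H1 lesion. The difference in H2 was -0.46 ± 0.20 and H1 minus H2 was 0.55 ± 0.25 (limma adjusted p = 0.201 and 0.391). Under 10 other settings of the fit the H2 difference was -0.46 to -0.19. The mean signal of Timp1 over all arrays, 3.46, lay below the median over all probe sets.

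Timp2, which also takes part in the activation of pro-MMP2 by MMP14, had signals of 5.53, 5.80 and 6.11 in H1 and 5.17, 7.00, 6.81 and 7.16 in H2, against 5.01, 5.93 and 7.79 as the lowest, median and highest normal values. All 3 groups overlapped. H2 minus normal was 0.38 ± 0.47, with a 95% interval of -0.61 to 1.37.

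Timp3, which binds the matrix and inhibits ADAM17 and several ADAMTS enzymes, had signals of 7.56, 7.79 and 8.24 in H1 and 7.05, 7.38, 8.43 and 8.59 in H2, against 5.09, 7.84 and 11.14 as the lowest, median and highest normal values. The normal arrays spanned the whole lesion range, and the normal array of widest spread held the highest value. The H2 difference from normal was -0.11 ± 0.76, with a 95% interval of -1.73 to 1.52. With array spread as a covariate the H2 difference was -2.32, and limma called it lower (adjusted p = 0.0114).

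Timp4 had signals of 4.68, 4.67 and 4.55 in H1 and 3.85, 4.36, 4.18 and 4.17 in H2, against 3.72, 4.40 and 5.83 as the lowest, median and highest normal values. The H1 values lay above the H2 values and within the normal range. H2 minus normal was -0.39 ± 0.31.

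**Figure D5:**
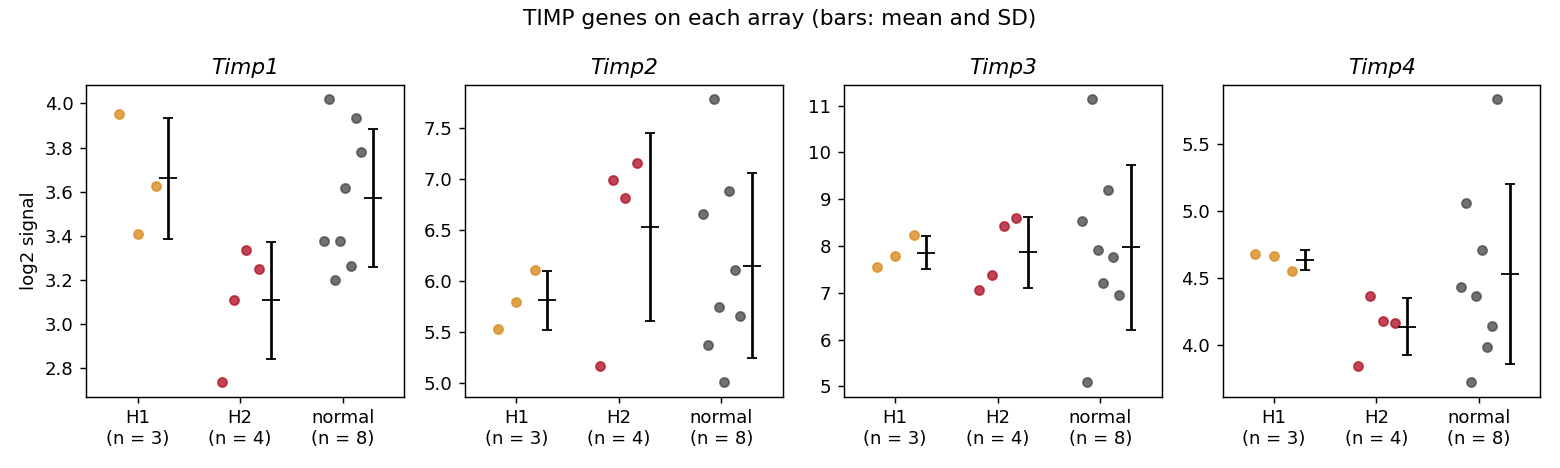
Log2 signal of Timp1, Timp2, Timp3 and Timp4 on every array, by group from H1 through H2 to normal, with mean and SD as lines. The normal arrays of Timp3 reach from 5.09 to 11.14, wider than both lesion groups.

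Genes that act beside the members were counted in the same fit, in which 2.89% of all genes rose in H2. Their values under the other settings of the fit are not given. Over all genes, the 525 called higher in H2 became 57 with spread and 74 with Actb as a covariate. Among the 9 partners of the sheddases, 1 rose in H2 and 0 fell, with a median difference of -0.12 beside -0.04 over all genes. It was Tspan14, a tetraspanin that carries ADAM10 to the cell surface, with a difference of 1.74 (limma adjusted p = 0.0331). Of 17 genes of proteins shed from the surface, 4 rose in H2 and 0 fell, with a median difference of 0.34. They were Cd44, the hyaluronan receptor, at 1.66, Cdh1 (E-cadherin) at 1.88, Notch2 at 1.77 and Tgfa, an EGF receptor ligand, at 0.81. Their limma adjusted p-values were 0.00857, 0.02, 0.0457 and 0.0446. Cdh1 is also an epithelial marker, and 4 of 5 markers of epithelial cells had a higher mean in H2 than in normal arrays, of which 3 were called. Their part in these differences was not tested.

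Of 18 matrix substrates, 1 rose in H2 and 0 fell, with a median difference of 0.48. It was Eln (elastin), at 2.81 in H2 and 2.83 in all lesions (limma adjusted p = 0.00642 and 0.00326). Furin, a convertase that activates ADAM and membrane-type MMP proenzymes, differed by 1.35 in H2 and was not called (limma adjusted p = 0.0892). The 4 convertases, 6 plasminogen system genes, 13 other inhibitors and 11 other metalloproteases had 0 members called by limma. At an unadjusted p under 0.05 in H2, the counts higher and lower were 1 and 0, 0 and 1, 0 and 3, and 0 and 2 in that order, beside 12.7% of all genes higher and 8.7% lower. Adamtsl4, an ADAMTS-like matrix protein, differed by -1.10 in H2 (limma adjusted p = 0.0657), Plg (plasminogen) by -0.46 and Mep1b, a meprin subunit, by -0.48. In H1 against normal, the lowest p of a list belonged to Furin (0.42), Tspan15 (-0.58), Plg (-0.23), Papln (-0.48), Anpep (-0.30), Eln (2.85) and Cdh1 (1.14). H1 minus H2 was -0.93 for Furin, -1.92 for Tspan14, 0.54 for Serpinf2, 1.27 for Adamtsl4, -0.48 for Anpep, -1.30 for Fn1 and -1.19 for Tgfa, the lowest p of each list there. In all lesions the corresponding genes besides Eln were Furin (0.95), Tspan15 (-0.42), Plg (-0.36), Spock2 (-0.98), Mep1a (-0.38) and Cd44 (1.29). None of the genes in these 3 comparisons was called apart from Eln in all lesions.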

How the data were processed

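RNA of 15 laser-captured mouse lung regions was extracted with PicoPure, amplified and labelled with WT-Ovation One-Direct, and hybridised to Affymetrix arrays, per the labels' protocols. The authors deposited 1 log2 signal per probe set and array, made with the affy package and RMA (background correction, quantile normalization and probe summary), per the submitters' processing notes, with no version. Of 45101 probe sets, 64 controls were left out. Probe sets with exactly 1 gene symbol in the platform annotation were used (34945, with 932 having several and 9160 none), and for each gene the one with the highest mean over all arrays. That gave 18193 genes. The members had 116 probe sets, 35 genes having 1 and 30 several. A further 5 with several symbols were not used.

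The test was limma 3.58.1 in R 4.3.3 (lmFit and eBayes, two-sided, Benjamini-Hochberg over all genes). A fit with 3 groups gave H1 and H2 against normal and against each other, and a fit with 2 groups gave lesions against normal. H1 and H2 against normal share the normal arrays. The number of arrays limits the precision. Alternatives changed the scaling (median centring, quantile), the genes (bright genes only), the summary (mean of probe sets), the model (array weights, robust trended prior, replicate block, the arrays of a comparison alone, H1 and H2 weighted equally), a covariate (spread, or Actb 3′ minus 5′) or the arrays (each left out, or the 2 normal arrays of narrowest spread).

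The members and lists were chosen with earlier results of these data known. Every array is given for Adamts1, the TIMP genes, called members and, in each comparison and direction, the up to 4 members of lowest p under 0.05. Group means are given for the 10 members of highest mean, and other MMP genes were picked with their values in view. From each list, called genes and the lowest p in each comparison are named. Promoters came from RefSeq (GRCm38.p6). Protein sequences were not used here.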

Additional observations from a re-analysis of the deposited data

Results flagged for a closer look

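Adamts9 in H2 replicate 7 had a log2 signal of 7.33, set apart from the other H2 lesions. The nearest of them had 5.75 and the lowest 5.50, so the gap was 0.864 of the group's range. Of 34 groups of arrays checked in this way, 1 stood out, where Dixon's 95% critical value, the limit used, flags by its definition about 1 in 20 groups by chance. The flag does not list every lone array. In H1, Adam9 (5.59, 7.84 and 7.86) and Adam19 (4.99, 6.70 and 6.63) also had a lone low array and were not flagged.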

How the results depend on the processing

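Adamts1 stayed called in all lesions under the 11 other settings (1.54 to 2.34). It was 2.08 to 2.48 with 1 of 15 arrays left out, and 6 of those 15 fits kept the call. In H2, Adamts1 was not called with the replicate block (2.13), spread (1.25) or Actb (1.96) as a covariate, and was 2.35 to 2.75 with 1 array left out. Adam19 in H2 was not called with the mean of probe sets (1.56), the replicate block (2.57), spread (1.22) or Actb (2.22), and was 2.50 to 3.05 with 1 array left out. The cause was not tested. The replicate numbers were not shown to pair the samples: over 7 pairs the correlations were -0.14 to 0.38, with 4 over 0.1, and 1 of 7 lesions correlated best with its own number. The number of members called in H2 (2) became 6 with array weights, 0 with the replicate block, 1 with spread (Timp3) and 0 with Actb, and 0 to 3 with 1 array left out. Over all genes in H2, 525 higher and 90 lower became 1586 and 613 with array weights, 34 and 5 with the block, 57 and 98 with spread and 74 and 18 with Actb. In H1 the count (0) became 1 with array weights and 1 with spread. In all lesions the count (1) became 2 with the mean of probe sets, and 0 to 2 with 1 array left out.

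None of the differences that turned sign was called by limma. Timp3 in H2 kept its sign and was called with spread (-2.32). Adamts1 in H1 minus H2 became 0.0799 with quantile normalization, 0.48 with spread and 0.0146 with Actb. With array weights, Timp1 in H1 became -0.0435, and Timp3 became 0.0233 in H1, 0.20 in H2 and 0.0364 in all lesions. With the mean of probe sets, Timp3 became 0.0680 in H1, 0.10 in H2 and 0.0871 in all lesions. With spread, Timp2 became -0.81 in H2, -0.63 in all lesions and 0.30 in H1 minus H2. With spread, Timp4 became 0.20 in H2, 0.19 in all lesions and -0.0112 in H1 minus H2, Timp1 in all lesions became 0.00031, and Timp3 in H1 minus H2 became 1.90. With Actb, Timp2 became -0.18 in H2 and -0.23 in all lesions, and Timp3 in H1 minus H2 became 1.05. With quantile normalization, Timp2 in all lesions became -0.12 and Timp3 in H1 minus H2 became 0.71. With the block, Timp3 in H1 minus H2 became 0.12 and Timp4 in all lesions 0.0064. Without the 2 normal arrays of narrowest spread, Timp2 in all lesions became -0.14 and Timp4 0.13. With 1 array left out, Timp1 in H1 was -0.0554 to 0.22, Timp4 in H1 -0.0118 to 0.29, Timp3 in H1 -0.52 to 0.34 and in H2 -0.52 to 0.35. Likewise Timp3 in all lesions was -0.52 to 0.34 and in H1 minus H2 -0.28 to 0.24, Timp2 in all lesions -0.0917 to 0.31, and Timp4 in all lesions -0.29 to 0.0064. Of 37 gene results, 23 kept their sign in every setting. For dim members, signal near background limits what the arrays can show.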
